A study of Homo sapiens with 12 samples.

Results

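This account follows 8 human genes that repair or copy past errors in DNA: 4 of mismatch repair (MSH6, MSH3, PMS2 and EXO1) and the 4 Y-family translesion polymerases (POLH, POLK, POLI and REV1). They were picked by gene symbol, through the Ensembl identifier of each row of the count table, and they make up 8 of its 62754 identifiers. PC9 is an established lung adenocarcinoma line whose growth depends on mutant EGFR, and erlotinib is an inhibitor of that kinase. Polyadenylated RNA was sequenced from 12 cultures of a PC9 subclone in 4 groups of 3. Untreated WT cells carried intact TDP1 and received no drug. Drug-tolerant cells (DTC) were TDP1 WT cells kept in 1 µM erlotinib for 7 days, and drug-tolerant expanded cells (DTEC) were TDP1 WT cells kept in it for 28 days. Untreated KO2 cells were a single TDP1 knockout line grown without drug, so genotype and line cannot be told apart. TDP1 removes trapped topoisomerase 1 from DNA ends. Cultures of a condition were split from one flask and then grown apart, all 12 carry 1 batch label, and p-values therefore measure the spread between such cultures.

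Mismatch repair corrects bases that replication has paired wrongly. MSH6 and MSH3 are alternative recognition subunits, the MSH6 complex reading single mismatches and very small loops and the MSH3 complex reading larger loops. PMS2 nicks the strand, and EXO1 digests the nicked strand so that it can be copied again. Y-family polymerases take over from the replicative enzymes at damaged bases and copy undamaged DNA with low fidelity: POLH passes ultraviolet dimers, POLK passes bulky adducts on guanine, POLI inserts bases opposite damaged template bases, and REV1 inserts cytosine and serves as a docking platform for the others. Lower mismatch repair and more use of low-fidelity polymerases are known to raise mutation rates in bacteria under stress.

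All 8 genes lie on different stretches of GRCh38, here with the spans of GENCODE 29. MSH6 spans 2:47695530-47810101 on the plus strand, MSH3 5:80654648-80876460 on the plus strand, PMS2 7:5973239-6009125 on the minus strand and EXO1 1:241847967-241895148 on the plus strand. POLH spans 6:43576150-43615660, POLK 5:75511756-75601144 and POLI 18:54269404-54321266, all on the plus strand. REV1 spans 2:99400475-99490035 on the minus strand. RefSeq promoters of GRCh38.p14, 250 bases before to 50 after the start, matched all 8 genes. They were searched on both strands for 4 spellings of the site bound by E2F factors, which switch on genes of DNA synthesis: TTTGGCGC, TTTCGCGC, TTTCCCGC and TTTGCCGC. One or more of these occurred in 3.31% of all 35116 promoters, in 5.25% of the 11889 promoters of genes tested here, and in 5 of the 8 promoters. The choice of motif was made after the expression values had been seen. Of the 8 promoters, all but that of POLI also held the GC box GGGCGG, found in 45.0% of all promoters. Any part of these motifs in the expression values was not tested. The 5 windows with an E2F spelling are shown, and capitals mark the matched 8 bases.
MSH3 promoter, chr5:80654534-80654563, plus strand: gcgcggtcaagTTTGGCGCgaaattgtggc
MSH6 promoter, chr2:47783137-47783166, plus strand: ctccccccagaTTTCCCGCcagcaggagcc
PMS2 promoter, chr7:6009131-6009160, minus strand: cgggaagtattTTTGCCGCcccgcccggaa
EXO1 promoter, chr1:241848197-241848226, plus strand: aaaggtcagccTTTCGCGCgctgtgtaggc
POLI promoter, chr18:54269350-54269379, plus strand, match on the other strand: gcctccacccgGCGGGAAAaaactcccgca

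Counted from the RefSeq start, the matched bases began at -107 in MSH3, where another match on the other strand overlapped the first, at -43 in PMS2 and at -213 in POLI. In MSH6 and EXO1 they lay just inside the transcript, at 3 and 4. The promoters of POLH, POLK and REV1 held none of the 4 spellings. The same search found a match in 11 of 19 promoters of a list of S phase and proliferation genes and in 5 of 11 promoters of replicative polymerase genes. Matches were fewer in the other lists described below. They occurred in 3 of 12 promoters of mismatch repair partners and in 2 of 17 of translesion partners. The p53 targets had 3 of 18, and the gap-filling and mitochondrial polymerases 0 of 4.

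A pair of the genes start head to head with a neighbour on the opposite strand. PMS2 and AIMP2, a scaffold protein of the tRNA synthetase complex, start 120 bases apart, and POLH and XPO5, the export receptor for precursor microRNAs, start 75 bases apart. The DNA between each pair of starts is printed because it is the whole stretch that the neighbours share. Capitals mark matches on either strand to the E2F spellings above, to CCAAT (in 34.6% of promoters) and to the GC box GGGCGG (in 45.0% of promoters), which can overlap.
PMS2 to AIMP2, chr7:6009126-6009244, minus strand: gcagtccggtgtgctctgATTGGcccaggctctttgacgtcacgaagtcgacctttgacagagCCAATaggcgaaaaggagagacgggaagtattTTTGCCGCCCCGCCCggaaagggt
POLH to XPO5, chr6:43576076-43576149, plus strand: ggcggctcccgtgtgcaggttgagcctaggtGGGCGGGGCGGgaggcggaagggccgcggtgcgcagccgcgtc

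The PMS2 to AIMP2 stretch of 119 bases held 1 E2F spelling, 2 CCAAT boxes and 2 GC boxes. The POLH to XPO5 stretch of 74 bases held 2 overlapping GC boxes and none of the others.

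Libraries held 25572691 to 38373679 estimated counts, and 17115 genes passed the filter on low counts, all 8 members among them. TDP1 itself averaged 26.3 ± 1.60 CPM (counts scaled to a common library size; SD, n = 3) in untreated WT and 10.8 ± 0.647 in KO2. It was also lower in DTC, at a mean of 14.0 CPM (log2 fold change -0.92, adjusted p = 3.56e-06 by edgeR), and at 26.6 CPM in DTEC. The first DTC culture stood apart from the other two, with a chi-square per degree of freedom of 118 and 73.1 against them, compared with 17.5 between those 2. Among PC9 identity genes, EPCAM, KRT8, KRT18, KRT19, KRT7, CDH1 and EGFR were abundant in every group, while NKX2-1, a lung lineage factor, was at 0 to 2 counts in untreated WT, DTEC and KO2 and at 9 to 15 in DTC. Of these 8 identity genes 5 were called lower and 1 higher in DTC (median -0.57). NKX2-1 was in the test through its DTC counts. With library totals alone 4 were lower and 3 higher. From untreated WT to DTC the mean of KRT8 went from 4015 to 1869 CPM and that of KRT18 from 2930 to 1184. EGFR went from 1501 to 612 CPM and KRT7 from 1965 to 2071. The blood genes PTPRC, CD3E and HBB reached at most 5 counts in any library, but others rose in DTC from low levels: LYZ from 1 to 11 counts in untreated WT to 34 to 56, CD14 from 3 to 10 to 16 to 31, and the endothelial gene VWF from 1 to 7 to 39 to 63. Of the fibroblast genes COL1A2, COL3A1 and DCN reached at most 2 counts, LUM had 0 outside DTC and 6 to 19 in it, and COL1A1 averaged 8.30 CPM in untreated WT and 55.7 CPM in DTC, while the endothelial gene PECAM1 averaged 32.0 in untreated WT, 8.77 in DTC and 92.1 in DTEC. Summed over the 5 genes that passed the filter, of 9 on the blood and endothelial list, the level was 58.7 to 61.8 CPM in untreated WT, between 44.4 and 51.2 after 7 days, between 122 and 143 after 28 days, and between 76.4 and 77.8 in KO2. In DTC 3 of these 5 genes were called higher and 1 lower (median 2.07). LYZ, CD14 and VWF were low in untreated WT and passed the filter through drug-treated libraries. That balance and median follow in part from the filter, so nothing is read from them. Mitochondrially encoded genes took 4.43% to 5.41% of counts in DTC and 1.82% to 2.78% in the other libraries. The part of these differences in the values below was not tested. In bulk RNA, fewer cells with a transcript and less transcript per cell cannot be told apart.

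At 7 days of erlotinib 3 of the 4 mismatch repair transcripts and REV1 were lower, and the other 3 Y-family polymerases were higher. MSH6 was at 44.5% of its untreated mean, and EXO1, MSH3 and REV1 were at 69.4%, 70.9% and 73.0%. POLI was at 179%, POLK at 153% and POLH at 141%, while PMS2, at 90.1%, was not called. At 28 days MSH6 (69.2%) and EXO1 (61.5%) were still below untreated WT, POLI was higher still (243%), and the other 5 were not called against untreated cells. In the TDP1 knockout line without drug none of the 8 was called.

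Calls are at an adjusted p under 0.05 from edgeR's quasi-likelihood test, adjusted over all genes tested. DTC against untreated WT called 7 of the 8 genes, 3 higher and 4 lower, beside 67.3% of all genes (34.0% higher, 33.3% lower). The 3 DTC libraries did not overlap the 3 untreated ones for 7 of the 8, beside 68.9% of all genes. DTEC against untreated WT called 3, 1 higher and 2 lower, beside 52.3% of all genes (26.0% higher, 26.3% lower), and 4 did not overlap, beside 62.4%. DTEC against DTC called 6, 4 higher and 2 lower, beside 55.4% of all genes (28.8% higher, 26.6% lower), and 6 did not overlap, beside 56.7%. That balance depended on scaling: with library totals alone or upper-quartile scaling it was 2 higher and 3 lower, where POLI and REV1 lost their calls and EXO1 gained one (adjusted p = 0.029 and 0.030). Under the same scalings POLK was also called higher in DTEC against untreated WT. KO2 against untreated WT called 0, beside 4.31% of all genes (2.76% higher, 1.55% lower). At 7 days most genes were called, so 7 of 8 is read against that share, and the contrast of DTC and the contrast of DTEC with untreated WT use the same 3 untreated libraries.

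**Figure D1:**
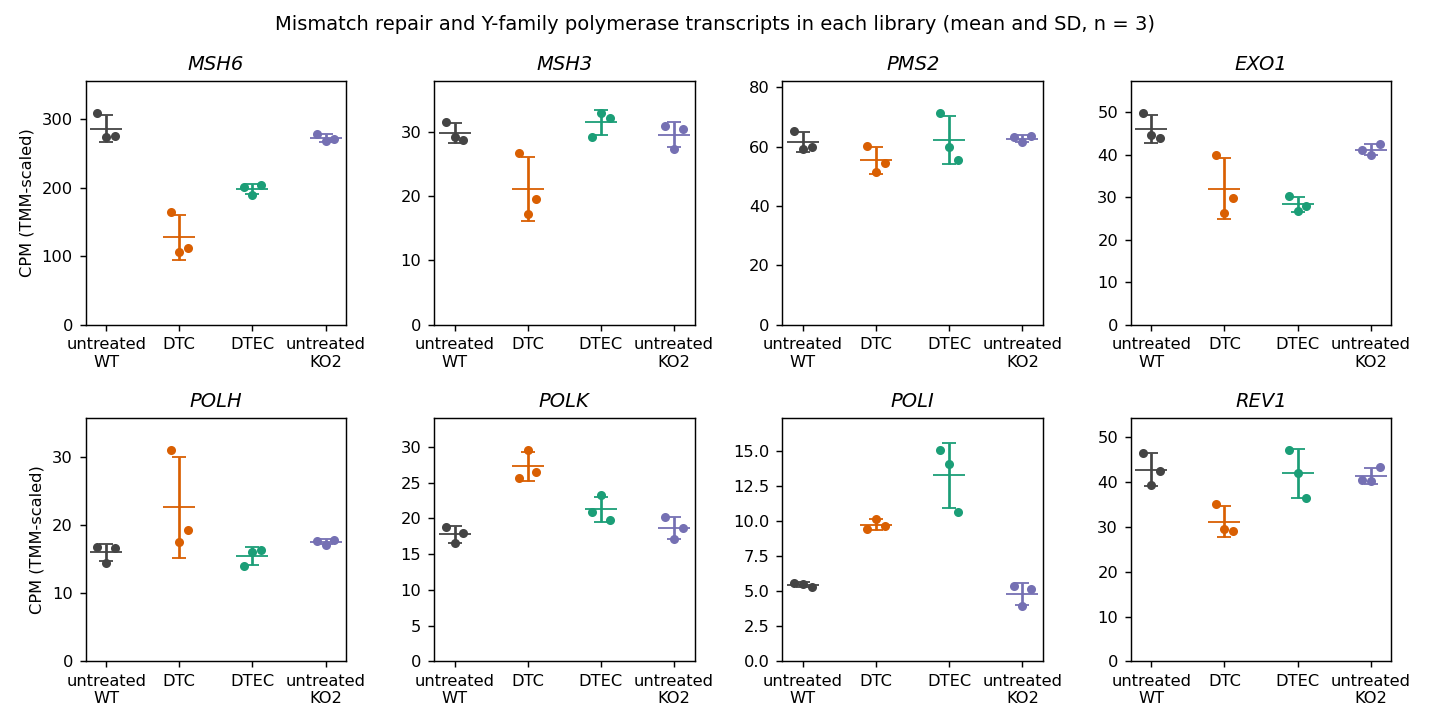
Level of each gene in each library, in TMM-scaled CPM on linear axes from 0, for untreated WT, DTC (7 days of erlotinib), DTEC (28 days) and untreated KO2; points are libraries, and the bars are mean and SD (n = 3). MSH6 falls from a mean of 286 to 127 CPM in DTC and lies at 198 in DTEC, while POLI climbs from 5.46 to 9.75 and 13.3.

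MSH6 had the largest change of the 8 in DTC with TMM scaling; with library totals alone (-0.81) and upper-quartile scaling (-0.88) the rise of POLI was larger (1.19 and 1.13). Its level was 309.5, 274 and 276 CPM in the 3 untreated WT libraries, 165, 106 and 111 in DTC, 202, 189 and 204 in DTEC, and 279, 268 and 271 in KO2. No library of DTC reached any of DTEC, and none of DTEC reached any of untreated WT. The log2 fold change was -1.17 in DTC (SE 0.14, adjusted p = 4.17e-06) and -0.53 in DTEC (SE 0.14, adjusted p = 0.00517), and DTEC lay above DTC by 0.64 (SE 0.14, adjusted p = 0.0014). Each of these calls held in all 18 alternative settings.

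MSH3 was lower at 7 days, and at 28 days it was called higher than at 7 days. It stood at 31.5, 29.2 and 28.7 CPM in untreated WT and at 26.7, 17.2 and 19.6 in DTC, all below the untreated range. In DTEC it was at 29.2, 32.96 and 32.2, within or just above the untreated range, and in KO2 at 31.0, 27.3 and 30.4. The DTC difference was -0.50 on the log2 scale (SE 0.14, adjusted p = 0.0053), and DTEC differed from DTC by 0.58 (SE 0.14, adjusted p = 0.00278). Against untreated WT the DTEC estimate was 0.08 with a 95% interval of -0.22 to 0.37. The DTC call ended without the second DTC culture (-0.31, adjusted p = 0.059), with library totals alone (adjusted p = 0.367) and with upper-quartile scaling (0.164).

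The ratio of MSH3 to MSH6 does not depend on how libraries are scaled. On the log2 scale it was -3.29, -3.23 and -3.27 in untreated WT, -2.63, -2.63 and -2.51 in DTC, -2.79, -2.52 and -2.66 in DTEC, and -3.17, -3.29 and -3.15 in KO2. Every drug-treated library lay above every untreated one. As plain ratios the group means were 0.104, 0.166, 0.159 and 0.109. The shift was 0.67 in DTC (SE 0.04) and 0.61 in DTEC (SE 0.08), each with p = 0.1 in a two-sided exact permutation test, the smallest that 3 against 3 libraries allow (adjusted over the 4 comparisons, 0.2). DTEC and DTC differed by -0.07 (exact permutation p = 0.4) and KO2 and untreated WT by 0.06 (exact permutation p = 0.3).

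PMS2 was at 65.3, 59.2 and 59.8 CPM in untreated WT, 60.2, 51.4 and 54.5 in DTC, 71.4, 59.8 and 55.6 in DTEC, and 63.2, 61.5 and 63.5 in KO2. The groups overlapped in every comparison with untreated WT. The DTC estimate was -0.15 (95% interval -0.38 to 0.08, adjusted p = 0.22), and its sign turned with library totals alone (0.20). In DTEC it was 0.02 (95% interval -0.21 to 0.25). PMS2 has near-identical pseudogene copies, and none of its 12 values was a whole number, so some of its reads were shared out by the authors' counting. This was not particular to PMS2. Of 12 values each, POLK also had 0 whole numbers, POLH had 4, MSH3 had 7 and MSH6 had 10.

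EXO1, the exonuclease of the pathway, was lower at both times. It stood at 49.8, 44.5 and 43.9 CPM in untreated WT, 39.9, 26.2 and 29.8 in DTC, 30.2, 26.8 and 27.9 in DTEC, and 41.1, 39.9 and 42.5 in KO2. All drug-treated libraries lay below all untreated WT ones. The log2 fold change was -0.53 in DTC (SE 0.13, adjusted p = 0.00265) and -0.70 in DTEC (SE 0.13, adjusted p = 0.000493). The DTC call ended with library totals alone (adjusted p = 0.251) and with upper-quartile scaling (0.097), and the DTEC call held in all 18 settings. DTEC and DTC overlapped and differed by -0.17 (95% interval -0.46 to 0.11, adjusted p = 0.28). That DTEC to DTC difference was called with library totals alone (-0.36), with upper-quartile scaling (-0.34) and without the second DTC culture (-0.34, adjusted p = 0.036), and was -0.00 without the first.

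Among the 4 Y-family genes, POLI had the largest relative rise at both times. Its level was 5.62, 5.50 and 5.28 CPM in untreated WT, 9.43, 10.2 and 9.65 in DTC, 15.1, 14.1 and 10.6 in DTEC, and 5.41, 3.92 and 5.14 in KO2. Every DTC library exceeded every untreated one, and every DTEC library exceeded every DTC one, the third DTEC culture only narrowly. The log2 fold change was 0.84 in DTC (SE 0.15, adjusted p = 0.000249) and 1.28 in DTEC (SE 0.15, adjusted p = 1.03e-05). Both held in all 18 alternative settings. The step from DTC to DTEC was 0.44 (SE 0.15, adjusted p = 0.0216), and it was no longer called in 6 of them, among them without the first (adjusted p = 0.104) or second DTEC culture (0.081) and without the third DTC culture (0.065).

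POLK rose at 7 days and lay between DTC and untreated WT at 28 days. It was at 18.8, 16.5 and 17.9 CPM in untreated WT, 25.7, 29.6 and 26.4 in DTC, 20.9, 23.2 and 19.8 in DTEC, and 20.2, 17.1 and 18.7 in KO2. The DTC libraries exceeded all others, and the DTEC libraries exceeded the untreated WT ones. The log2 fold change was 0.62 in DTC (SE 0.11, adjusted p = 0.00015), which held in all 18 settings, and DTEC differed from DTC by -0.36 (SE 0.11, adjusted p = 0.0111; 0.054 with no filter on low counts). Against untreated WT the DTEC estimate of 0.26 (95% interval 0.03 to 0.49) had an adjusted p of 0.0565 and was called in 8 of the 18 settings, by DESeq2 among them (adjusted p = 0.027).

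POLH, the polymerase missing in the variant form of xeroderma pigmentosum, had its highest level by far in a single DTC culture. It was at 16.8, 14.5 and 16.7 CPM in untreated WT, 31.1, 17.5 and 19.3 in DTC, 14.0, 16.0 and 16.4 in DTEC, and 17.7, 17.2 and 17.9 in KO2. The first DTC culture was far above the other 2, which lay just above the untreated range. The log2 fold change was 0.50 in DTC (SE 0.17, adjusted p = 0.0199) and 0.24 without that culture (adjusted p = 0.069). It also missed the threshold without the second untreated WT culture (0.46, adjusted p = 0.069) and with the compared libraries alone (0.058). DTEC differed from DTC by -0.55 (SE 0.17, adjusted p = 0.0156), a call that ended without the first DTC culture (-0.26, adjusted p = 0.0506) or without the first DTEC culture (-0.49, adjusted p = 0.059).

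REV1, the platform for the other Y-family enzymes, moved the opposite way from the other 3 at 7 days. It was at 46.5, 39.3 and 42.4 CPM in untreated WT, 35.0, 29.5 and 28.97 in DTC, 47.2, 42.1 and 36.4 in DTEC, and 40.5, 40.2 and 43.4 in KO2. DTC lay below untreated WT without overlap, and DTEC spanned the untreated range. The log2 fold change was -0.46 in DTC (SE 0.12, adjusted p = 0.00311) and 0.43 in DTEC against DTC (SE 0.12, adjusted p = 0.00643). The DTC fall was not called with library totals alone (adjusted p = 0.449) or upper-quartile scaling (0.189), and the DTEC to DTC difference not with library totals alone (0.087), upper-quartile scaling (0.064) or the compared libraries alone (0.051). Against untreated WT the DTEC estimate was -0.03 (95% interval -0.28 to 0.22).

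The first DTC culture was the highest of its group for MSH6, MSH3, PMS2, EXO1, POLH and REV1 and the lowest for POLK and POLI. Without it the DTC estimates were -1.36 for MSH6, -0.66 for MSH3, -0.68 for EXO1, -0.51 for REV1, 0.69 for POLK and 0.89 for POLI, all called. The 7-day falls of MSH3, EXO1 and REV1 also depended on scaling. With library totals alone the median over all genes moved by 0.35 and 68.4% of all calls were higher instead of 50.5%. MSH3 (-0.14), EXO1 (-0.17) and REV1 (-0.10) were then not called, leaving 3 of the 8 called higher and 1 lower. Relative to the median of all genes the 3 stood at -0.55, -0.58 and -0.51 in the main fit.

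**Figure D2:**
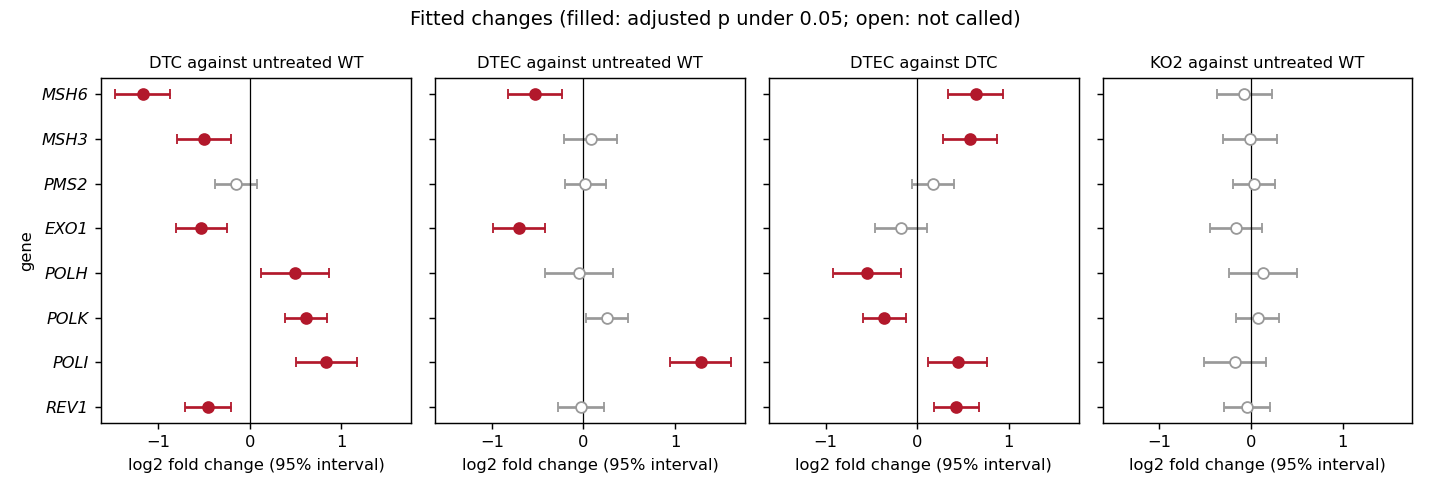
Log2 fold change of each gene in the 4 comparisons with its 95% interval, filled where the adjusted p is under 0.05. MSH6 and POLI lie at opposite ends in DTC against untreated WT (-1.17 and 0.84), and all 8 intervals in KO2 against untreated WT include 0.

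The order of the levels was read per kb of 1 transcript a gene, a length taken from the annotation: the transcript tagged as principal by APPRIS for 5 genes, and the one with the longest coding sequence for EXO1, POLH and REV1. In untreated WT it ran MSH6 (38.3 ± 2.68 CPM per kb, SD, n = 3), PMS2 (21.5 ± 1.18), EXO1 (13.3 ± 0.937), REV1 (8.99 ± 0.765), MSH3 (7.29 ± 0.372), POLH (4.52 ± 0.369), POLK (3.00 ± 0.197) and POLI (0.891 ± 0.0279). No neighbours in that order overlapped between libraries. In DTC PMS2 (19.4 ± 1.55) and MSH6 (17.0 ± 4.35) overlapped at the top, and REV1, POLH, MSH3 and POLK overlapped one after another (6.56, 6.39, 5.16 and 4.61 CPM per kb). In DTEC MSH6 was again first at 26.5 ± 1.07, REV1, EXO1 and MSH3 overlapped, and POLI stayed last at 2.16 ± 0.381. With the union of all exons as length, MSH3 and REV1 changed places in untreated WT.

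Within the Y family the composition shifted at 7 days. REV1 made up 52.5%, 51.5% and 50.9% of the summed CPM per kb of the 4 polymerases in untreated WT and 33.5%, 34.8% and 34.7% in DTC. In DTEC it was at 49.9%, 45.2% and 44.1%, above every DTC library and still below every untreated WT one. POLI went from 4.91%, 5.58% and 4.91% to 6.97%, 9.32% and 8.94% in DTC and 12.4%, 11.7% and 9.98% in DTEC, so that its lowest DTEC share exceeded its highest DTC share. POLK had a mean share of 17.3% in untreated WT, 24.4% in DTC and 19.0% in DTEC, and POLH had 26.0%, 32.9% and 23.2%. The first DTC culture stood apart in both. The 3 DTC libraries had 39.9%, 27.7% and 31.0% for POLH and 19.7%, 28.1% and 25.4% for POLK. The shares also depend on the length used. With the union of all exons, POLH was at 6.39 CPM per kb in DTC and REV1 at 4.01. In KO2 the mean shares were 49.4% for REV1, 28.2% for POLH, 17.9% for POLK and 4.45% for POLI.

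**Figure D3:**
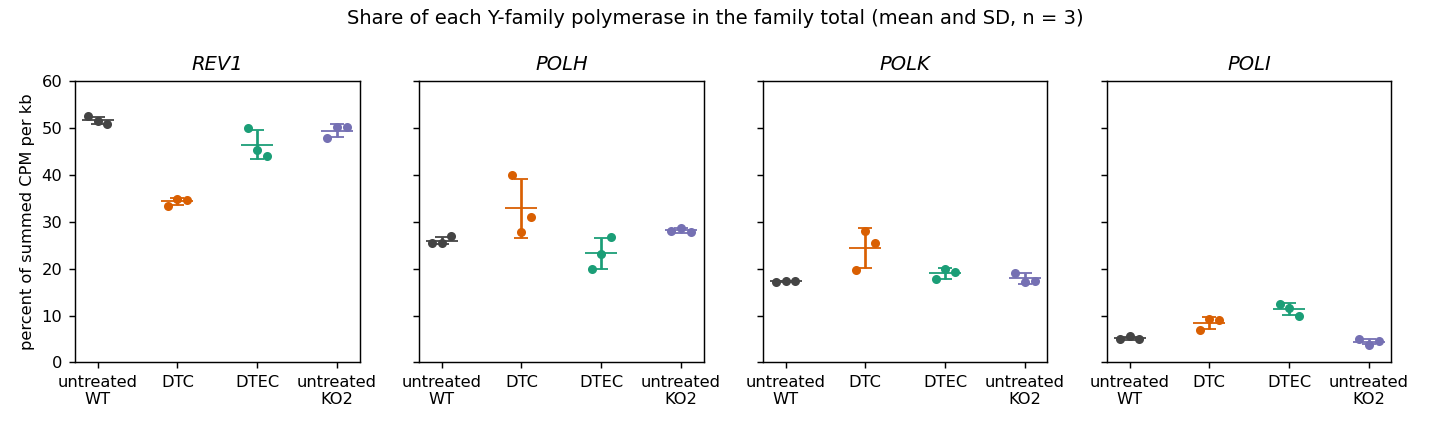
Share of each Y-family polymerase in the summed CPM per kb of the 4, in percent, by library with mean and SD (n = 3). The REV1 share drops from 51.6% to 34.3% at 7 days and is 46.4% at 28 days, and the POLI share rises from 5.14% to 8.41% and 11.3%.

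The TDP1 knockout line without drug differed from untreated WT in none of the 8 genes by edgeR at the adjusted threshold. None had an unadjusted p under 0.05 (the lowest was 0.235), and DESeq2 called 0. The estimates ran from -0.18 for POLI to 0.13 for POLH, and all 95% intervals lay between -0.52 and 0.51. EXO1 (lower) and POLH (higher) did not overlap between the groups, 2 of 8 beside 35.7% of all genes. Over the 8 genes the median was -0.03, against -0.01 for all genes.

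The pathway partners give the setting at 7 days. Of 16 mismatch repair partners, which include the clamp PCNA, its loader RFC and the single-strand binder RPA, 13 were called lower and 0 higher in DTC (0 higher at an unadjusted p under 0.05, 1 by DESeq2), with a median of -0.68 beside 0.06 for all genes. RFC5, a clamp loader subunit, fell from 77.5 ± 1.97 to 30.9 ± 1.36 CPM (log2 fold change -1.32), and HMGB1, a chromatin protein whose counts may share reads with its pseudogenes, from 473 ± 38.9 to 179 ± 9.53 CPM (-1.40). Of 20 translesion partners and enzymes of PCNA ubiquitination, 14 were lower and 3 higher (median -0.63). USP1, which removes ubiquitin from PCNA, fell from 174 ± 17.2 to 68.0 ± 12.2 CPM (-1.35). POLN, an A-family translesion polymerase, had 0 to 1 counts in untreated WT and 15 to 40 in DTC, at least 9.03-fold higher against a floor of 3 counts per library.

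Replicative polymerases and proliferation genes were lower as well. Of 12 replicative polymerase subunits, 9 were lower and 1 higher in DTC (median -1.02), among them POLA1 of the primase complex (-1.64) and POLD2 of polymerase delta (-1.49). Of 24 S phase and proliferation genes, 22 were lower and 1 higher (median -1.34), with PLK1 (-3.36) and AURKA (-2.40), both mitotic kinases, the most changed. Summed over the list, the level was 5042 to 5258 CPM in untreated WT and 5076 to 5133 CPM in KO2, but 1511 to 1748 CPM after 7 days of drug and 2502 to 2758 CPM after 28. This sum was below untreated WT at both times, as MSH6 and EXO1 were. From 7 to 28 days it rose, as MSH6 did, while EXO1 averaged 32.0 CPM in DTC and 28.3 in DTEC. The part of the list in the falls of MSH6 and EXO1 was not tested. Of 5 gap-filling and mitochondrial polymerases, 1 was lower, POLG (-0.31, reversed to 0.05 with library totals alone), and 0 were higher, also unadjusted and by DESeq2 (median -0.01). Of 22 p53 target genes that passed the filter, of 23 listed, 10 were higher and 7 lower (median 0.19), led by TP53INP1 (6.54) and TP53I3 (2.63). TP53INP1 averaged only 0.133 CPM in untreated WT, near the floor, and 12.8 in DTC, so the size of its change is uncertain.

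The median over the 8 genes was -0.30 in DTC, and it was 0.05 with library totals alone and -0.02 with upper-quartile scaling, where the medians of all genes were 0.41 and 0.34. Under those scalings the mismatch repair partners had 3 higher with 7 and 9 lower, the translesion partners 5 higher with 10 and 12 lower, and the S phase list 1 higher with 21 lower. The medians of these 3 lists stayed below 0. The gap-filling and mitochondrial polymerases turned to 3 and 2 higher with 0 lower, and the p53 targets had 14 and 13 higher with 5 and 6 lower.

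At 28 days most calls in the partner lists were again lower. Of the mismatch repair partners 9 were lower and 1 higher in DTEC (median -0.50 beside 0.02 for all genes), with RFC5 and HMGB1 both at -1.06. The translesion partners had 9 lower and 3 higher (median -0.36), with POLQ, the polymerase of end joining, at -1.06. One of the 3 was POLN, which had 0 to 1 counts in untreated WT and 2 to 7 in DTEC, was in the test through its DTC counts, and lost the call in 7 of 17 alternative settings; DESeq2 called 2 higher. Replicative polymerases had 11 lower and 0 higher, also unadjusted and by DESeq2 (median -0.72), led by POLE4 (-1.20) and by POLD1 (-1.03), which varied widely between libraries. All 24 S phase and proliferation genes were lower (median -0.9998), led by RRM2 (-1.66) and PLK1 (-1.50). Of the gap-filling and mitochondrial polymerases 3 were lower and 1 higher, with POLG at -0.62 and POLL at 0.52, and of the p53 targets 5 were higher and 9 lower, led by TP53INP1 (5.70) and BBC3 (2.34). For TP53INP1 the means were 7.11 CPM in DTEC and 0.133 in untreated WT, near the floor. With library totals alone the gap-filling list had 1 lower and 1 higher, the p53 targets 7 and 7, and the translesion partners 9 lower and 6 higher. The median of the 8 genes was -0.00.

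**Figure D4:**
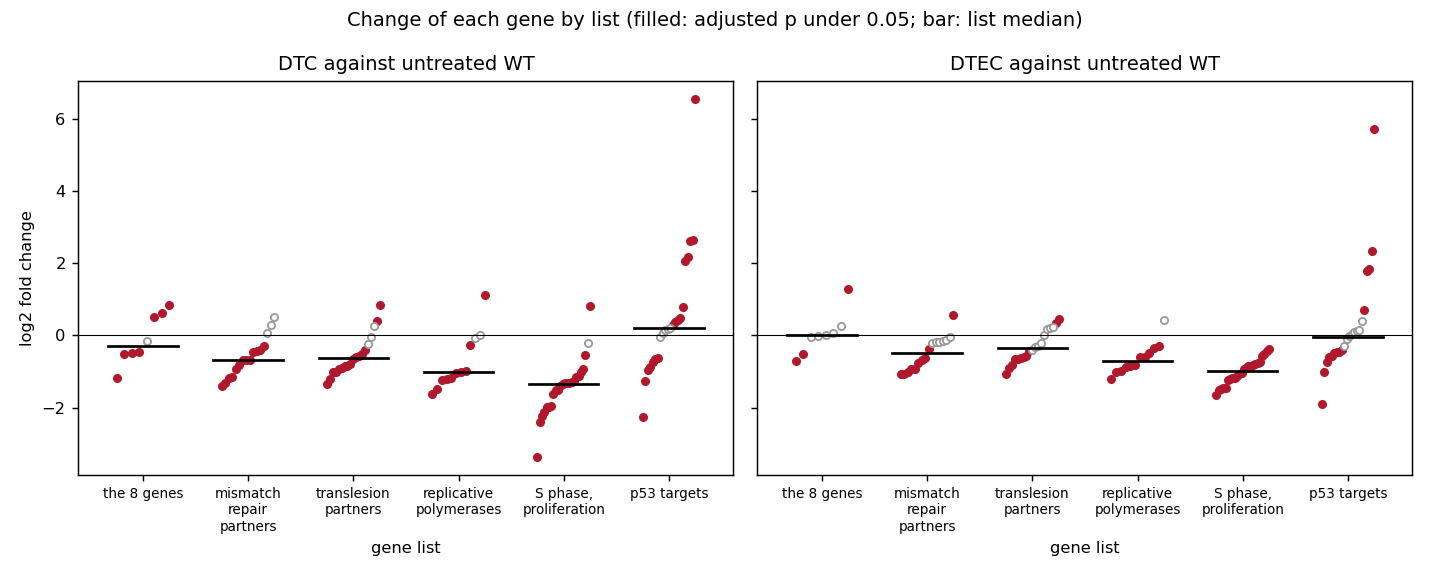
Log2 fold change against untreated WT of each gene in 6 lists, at 7 days (DTC, left) and 28 days (DTEC, right); filled points have an adjusted p under 0.05, bars are list medians, and POLN, at the floor in untreated WT, is not drawn. The partner, polymerase and S phase lists lie mostly below 0 (medians -0.68, -0.63, -1.02 and -1.34 in DTC), and the 8 genes are spread on both sides.

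Between 7 and 28 days the lists moved in both directions. DTEC against DTC called 6 of the mismatch repair partners higher and 3 lower (median 0.22 beside -0.01 for all genes), with RPA1 at 0.63 and RPA3 at -0.65. The RPA3 call ended in 5 of 18 alternative settings, among them without the second DTC culture (-0.34, adjusted p = 0.14). The translesion partners had 9 higher and 4 lower (median 0.23), with ZRANB3, a fork-remodelling enzyme, at 1.07. Replicative polymerases had 5 higher and 3 lower (median 0.14), led by POLE4 (-1.12) and POLA1 (1.03), and the S phase list 13 higher and 4 lower (median 0.49), led by PLK1 (1.85) and TOP2A (1.67). The gap-filling and mitochondrial polymerases had 1 higher, POLL (0.33), and 2 lower, led by POLG2 (-0.40). The POLL call ended in 10 of 18 alternative settings, among them library totals alone (0.14, adjusted p = 0.32) and without the third DTEC culture (0.22, adjusted p = 0.15). Of the p53 targets 7 were higher and 8 lower, with CDKN1A at -3.36 and TP53I3 at -3.08. The 8 genes had a median of 0.30. With library totals alone 37.4% of all calls were higher instead of 51.9%, and the replicative polymerase median turned to -0.04. The balance of calls moved with it: the mismatch repair partners had 1 higher and 5 lower, also with upper-quartile scaling, the translesion partners 6 and 6, the gap-filling list 0 and 4, and the p53 targets 4 and 8.

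In KO2 the translesion, replicative, gap-filling and S phase lists had 0 calls in either direction by edgeR. At an unadjusted p under 0.05 they had 0, 3, 0 and 4 genes, and DESeq2 called 0, 0, 0 and 2. The p53 targets had 2 lower, TP53I3 (-0.92), which held in all 18 alternative settings, and AEN (-0.36), whose call ended in 12 of them (adjusted p up to 0.226).

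The head-to-head neighbours AIMP2 and XPO5 were called lower at both times, which PMS2 and POLH were not. AIMP2 was at 117, 122 and 120.0 CPM in untreated WT, 42.9, 56.5 and 57.6 in DTC, 52.8, 53.6 and 59.8 in DTEC, and 113, 122 and 116 in KO2. It fell by 1.19 in DTC (SE 0.11, adjusted p = 3.51e-07) and by 1.11 in DTEC (SE 0.11, adjusted p = 1.92e-06), while PMS2, across 120 bases, was called at neither time. The log2 ratio of PMS2 to AIMP2 was -0.96 ± 0.11 (SD, n = 3) in untreated WT, 0.09 ± 0.34 in DTC and 0.16 ± 0.27 in DTEC, without overlap. Both shifts gave p = 0.1 in an exact permutation test, the smallest possible (0.2 adjusted over 4).

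XPO5 was at 186, 182 and 189 CPM in untreated WT, 96.7, 59.4 and 64.9 in DTC, 140.4, 119.9 and 106 in DTEC, and 171, 169 and 170.2 in KO2. It fell by 1.33 in DTC (SE 0.16, adjusted p = 3.17e-06), where POLH was higher, and by 0.60 in DTEC (SE 0.15, adjusted p = 0.00432). The log2 ratio of POLH to XPO5 was -3.46, -3.65 and -3.50 in untreated WT and -1.64, -1.77 and -1.75 in DTC, a shift of 1.82 (SE 0.07). The first DTC culture, which was high for both genes, was not apart from the others in this ratio. In DTEC the mean ratio was -2.97 ± 0.32 (SD, n = 3) and in KO2 -3.27 ± 0.03. All 4 comparisons of the ratio gave p = 0.1 in an exact permutation test, the smallest possible. Both neighbour ratios were chosen after the levels had been seen.

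**Figure D5:**
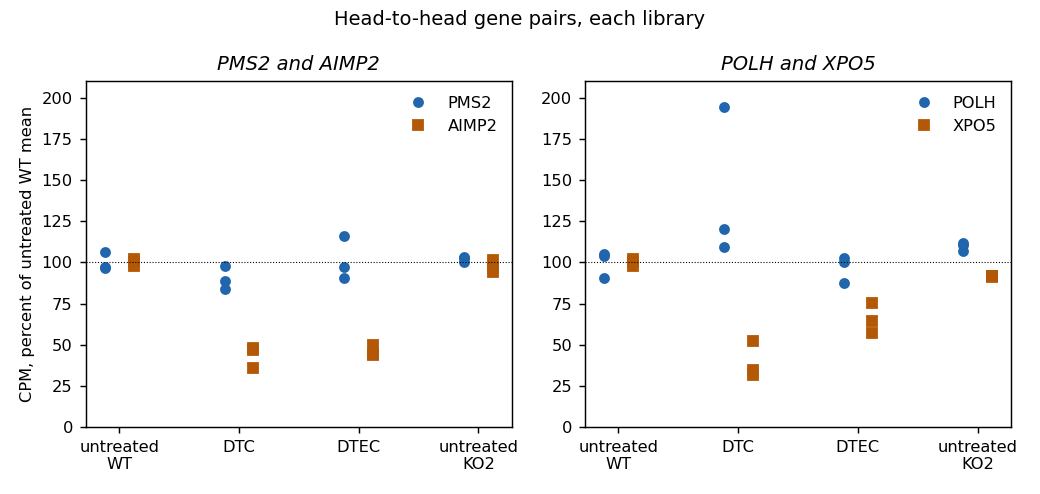
Level of PMS2 and POLH and of their neighbours on the opposite strand in each library, as percent of the untreated WT mean of the same gene. AIMP2 and XPO5 (squares) drop to 43.7% and 39.7% on average in DTC, while PMS2 and POLH (circles) average 90.1% and 141%.

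Exons on opposite strands share bases in several places: 1785 bases of MSH6 (16.2% of its exon length) with FBXO11, 852 of REV1 (10.97%) with EIF5B and 230 of POLK with CERT1. The libraries were made with a stranded kit, and the strand setting of the counting is not given in the sources used here. If strand was not used, reads from those bases cannot be told apart.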

How the data were processed

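RNA from 12 PC9 cultures was sequenced as 101 bp paired-end reads from a stranded poly(A) kit, per the labels' protocols. The deposited table holds the authors' expected counts per Ensembl gene, not normalized; RSEM 1.3.1, Bowtie2 2.5.2, DESeq2 1.40.2 and GRCh38 are named in the submitters' processing notes, and the annotation is not given in the sources used here. Symbols came from the reference tables (62700 of 62754 identifiers matched) and positions and lengths from GENCODE 29. The 8 genes and all lists were chosen with earlier results of these data known.

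Expected counts were rounded and fitted with edgeR 4.0.16 (R 4.3.3): TMM scaling, filterByExpr, robust quasi-likelihood test with all 12 libraries in one fit, Benjamini-Hochberg adjustment over 17115 genes, threshold 0.05. CPM are TMM-scaled. The script was tested on simulated data. Totals per library were 32664521 to 38219562 (untreated WT), 25734578 to 29572251 (DTC), 25572691 to 36054069 (DTEC) and 29959579 to 38373679 (KO2); the least abundant gene, POLI, had 121 to 496 counts. Ratios were tested by two-sided exact permutation (SciPy 1.17.1).

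In each comparison the 2 called genes of each list with the largest absolute change were named, plus protein-coding neighbours on the opposite strand starting within 1000 bases upstream. Some named genes are not reported here. Alternatives were DESeq2 1.42.0, library totals alone, upper-quartile scaling, no filter, the compared libraries alone, a replicate block and leaving out each library; the lists were also counted under both scalings, chosen after seeing the data. The deviations of same-numbered cultures from their group means had correlations of 0.32, 0.15 and 0.15 in DTC and untreated WT. In the other comparisons the correlations ran from -0.10 to 0.44. The block changed no call of the 8 genes in DTC against untreated WT.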

Additional observations from a re-analysis of the deposited data

How the results depend on the processing

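The direction and call of the 8 genes were recomputed in 18 settings, 144 values per comparison. In DTC against untreated WT 132 kept direction and call, 10 lost the call and 2 reversed; the 3 other comparisons, in the order DTEC against untreated WT, DTEC against DTC and KO2, kept 127, 126 and 132, lost 0, 13 and 0, gained 8, 3 and 0, and reversed in 9, 2 and 12. Library totals alone and upper-quartile scaling each left 4 of the 8 called in DTC, and fitting the compared libraries alone left 3 in DTEC against DTC; the cause was not tested. All genes called in KO2 numbered 738 in the main fit, 1148 with DESeq2, 1147 without the filter, 2656 with the compared libraries alone, and 321 to 1520 when single libraries were left out (1520 without the first DTC culture, 321 without the first untreated WT culture).

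Reversed log2 values, with library totals alone and then upper-quartile scaling, were 0.20 and 0.14 for PMS2 in DTC, 0.12 and 0.0673 for POLH and 0.14 and 0.0857 for REV1 in DTEC, and -0.0169 and -0.00307 for PMS2 and -0.11 and -0.0946 for AIMP2 in DTEC against DTC. With library totals alone POLG in DTC was 0.0451, and in KO2 REV1 was 0.0233 and AIMP2 0.0297. MSH3 in KO2 was 0.0572, 0.0111, 0.0118 and 0.0122 with library totals, upper-quartile scaling, no filter and the compared libraries alone.

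Leaving out single libraries moved estimates near 0 across it: in DTEC, PMS2 from -0.0708 to 0.0871, POLH from -0.10 to 0.0395 and REV1 from -0.10 to 0.0569; in DTEC against DTC, AIMP2 from -0.0584 to 0.14; and in KO2, MSH3 from -0.0254 to 0.0464, MSH6 from -0.0811 to 0.0030, REV1 from -0.0809 to 0.0348 and AIMP2 from -0.0646 to 0.00587.

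With the replicate block, all genes called numbered 11775 in DTC, 9255 in DTEC, 9732 in DTEC against DTC and 887 in KO2, and no call of the 8 genes changed. The sample titles link cultures of different groups by a number alone. Outside DTC against untreated WT the correlations of same-numbered cultures were mixed. They were 0.34, -0.01 and 0.03 in DTEC against untreated WT, and 0.37, -0.10 and 0.44 in DTEC against DTC. In KO2 against untreated WT they were 0.28, 0.21 and 0.07. With 3 libraries a group, exact tests cannot go below 0.1.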

Other observations

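For each of the 8 genes the 2 genes whose log2 CPM followed it most closely over the 12 libraries were listed, among about 9786 genes with a mean of at least 10 CPM. The 12 points share library, depth and condition, so the values are a description only. MSH6 was followed most closely by KIF4A, a chromosome-condensing kinesin (Pearson r of 0.996), and SUPT16H, a histone chaperone subunit (0.996). EXO1 had CBX1, a heterochromatin protein (0.983), and DNAJA1, a chaperone (0.977). MSH3 had TSPYL1 (0.971) and KDM3B, a histone demethylase (0.966), and PMS2 had the lower values of 0.930 for RAB27A, a GTPase of vesicle release, and 0.928 for DERL1, of protein export from the endoplasmic reticulum. Among the polymerases, POLI had CEPT1, an enzyme of phospholipid synthesis (0.978), and TSPAN2 (0.976). POLK had the readthrough transcript RPL17-C18orf32 (0.969) and NEAT1, the long non-coding RNA of paraspeckles (0.965). POLH had FKBP9 (0.952) and ADGRG6 (0.929), and REV1 had CDC73, of the PAF1 complex (0.973), and VPS35, of the retromer (0.969).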
